A study of Mus musculus with 4 samples.

Results

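The replication-dependent histone genes were taken as the gene probes of the array whose gene name begins with Hist1h, Hist2h or Hist3h, with the brightest probe standing for each gene. This gave 35 genes and 45 probes among 41174 gene probes. By class they were 6 genes for linker histone H1, 11 for H2A, 10 for H2B, 3 for H3 and 5 for H4. The Hist1 cluster on chromosome 13 held 25 of them, the Hist2 cluster on chromosome 3 held 7 and the Hist3 cluster on chromosome 11 held 3. Under their current names, RefSeq (GRCm38.p6) lists 69 genes of these clusters, and all 35 genes were found there.

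Core histones (H2A, H2B, H3 and H4) form the protein spool around which DNA is wound, and linker histone H1 binds where DNA enters and leaves it. Replication-dependent histone genes lie in clusters, have no introns and are transcribed mainly in S phase, when new chromatin needs histones. Their mRNAs end in a stem-loop bound by SLBP rather than in a poly(A) tail, although some of these genes also give polyadenylated mRNA in differentiating or resting cells. The labelled RNA was primed with oligo-dT, so the signals depended on RNA with a poly(A) tail or an internal run of A as well as on the amount of mRNA.

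Embryonic fibroblasts (MEFs) without cyclin G1 (CycG1-/-, G1KO) were set against CycG1+/+ (WT) MEFs, and MEFs labelled CycG2-/- (G2KO) against CycG2+/+ (WT) MEFs. All were given as C57BL/6J, although the source label of the second comparison read C57BL/7J, and were untreated, in logarithmic growth, in DMEM with fetal bovine serum. The G1KO allele lacked every protein-coding exon of Ccng1. Each comparison was 1 knockout RNA and 1 WT RNA on 2 two-colour arrays with the dyes exchanged, so there was 1 culture per genotype, no test of significance was possible, and every ± is the SD between the 2 arrays of one RNA pair.

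Ccng1, the deleted gene, had a log2 ratio of -6.67 ± 0.13 in G1KO MEFs, whereas Ccng2 gave 0.09 ± 0.27 in the second comparison and was not reduced there, so its directions rest on the label and its knockout is called the RNA labelled G2KO. Of 10 fibroblast markers, 10 were above background in G1KO MEFs and in both WT cultures, and 9 in the RNA labelled G2KO. In the RNA labelled G2KO, 6 of the 10 were called lower, among them Pdgfra (-4.63) and Postn (-4.19), and the mean log2 level of the 10 on the 2 arrays was 12.0 and 12.3 against 14.2 and 14.3 in its WT. Of 4 epithelial markers, 3 were above background in both cultures of the G1KO comparison, with mean log2 levels of 8.72 and 8.80 in G1KO MEFs and 9.102 and 9.126 in WT; Krt8 was called lower there (-1.14), and 0 were above background in the RNA labelled G2KO. Cd68 and Hbb-b1, 2 of 3 blood markers, were above background in every culture and Kdr, 1 of 3 endothelial markers, in the G1KO comparison, while Epcam, Pecam1 and Ptprc were not in either comparison. Of 5 neural or glial markers, 3 were above background in the RNA labelled G2KO and 4 in its WT, with mean log2 levels of 8.06 and 8.11 against 7.20 and 7.25, and Sox2 gave 5.59 ± 0.35. The germ-line gene Ddx4 gave -5.93 ± 0.03 in G1KO MEFs. The genotypes also differed in sex-linked RNA in both comparisons: Xist gave 7.54 and 7.24, and Ddx3y -4.97 and -4.26. How far cell make-up or sex entered the histone values was not tested. In RNA from a whole culture, fewer cells with a transcript and less of it per cell cannot be told apart.

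A probe was tested when it was well above background on both arrays in at least 1 genotype, and was called when the ratio of knockout to WT was at least 2-fold, which is 1 on the log2 scale, in one direction on each array. Detected histone genes numbered 31 of 35 in the G1KO comparison, where Hist1h1t, Hist1h2ac, Hist1h2be and Hist2h2bb were not, and 33 in the G2KO comparison, where Hist1h2ac and Hist1h2be were not. One of them passed through 1 genotype in each case, Hist2h2aa2 through WT in the first and Hist1h1t through the knockout in the second. Only 3 genes were called, all for H2B. In G1KO MEFs, 0 histone genes were called higher (1.99% of all probes tested were) and 1 was called lower, Hist1h2bc (3.80% of all probes). In the RNA labelled G2KO, 2 were called higher, Hist2h2be and Hist3h2ba (2.31% of all probes), and 0 lower (4.06% of all probes). With counts this small, no share of called histone genes is read against these backgrounds.

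Most of the other ratios were under 2-fold but had the same sign on both arrays. In G1KO MEFs 23 of 31 detected histone genes were above 0 on both arrays and 7 below, whereas 39.8% of all probes were above and 40.8% below. The median log2 ratio of the detected genes was 0.29, beside -0.0023 for all probes. Of the 33 detected in the RNA labelled G2KO, 29 were above 0 on both arrays and 3 below, with 40.7% and 42.7% of all probes, and the median was 0.46, beside -0.0071 for all probes. The SD between the arrays had a median of 0.09 over the detected histone genes in the first comparison and 0.11 in the second, and the arrays were not independent cultures.

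**Figure D1:**
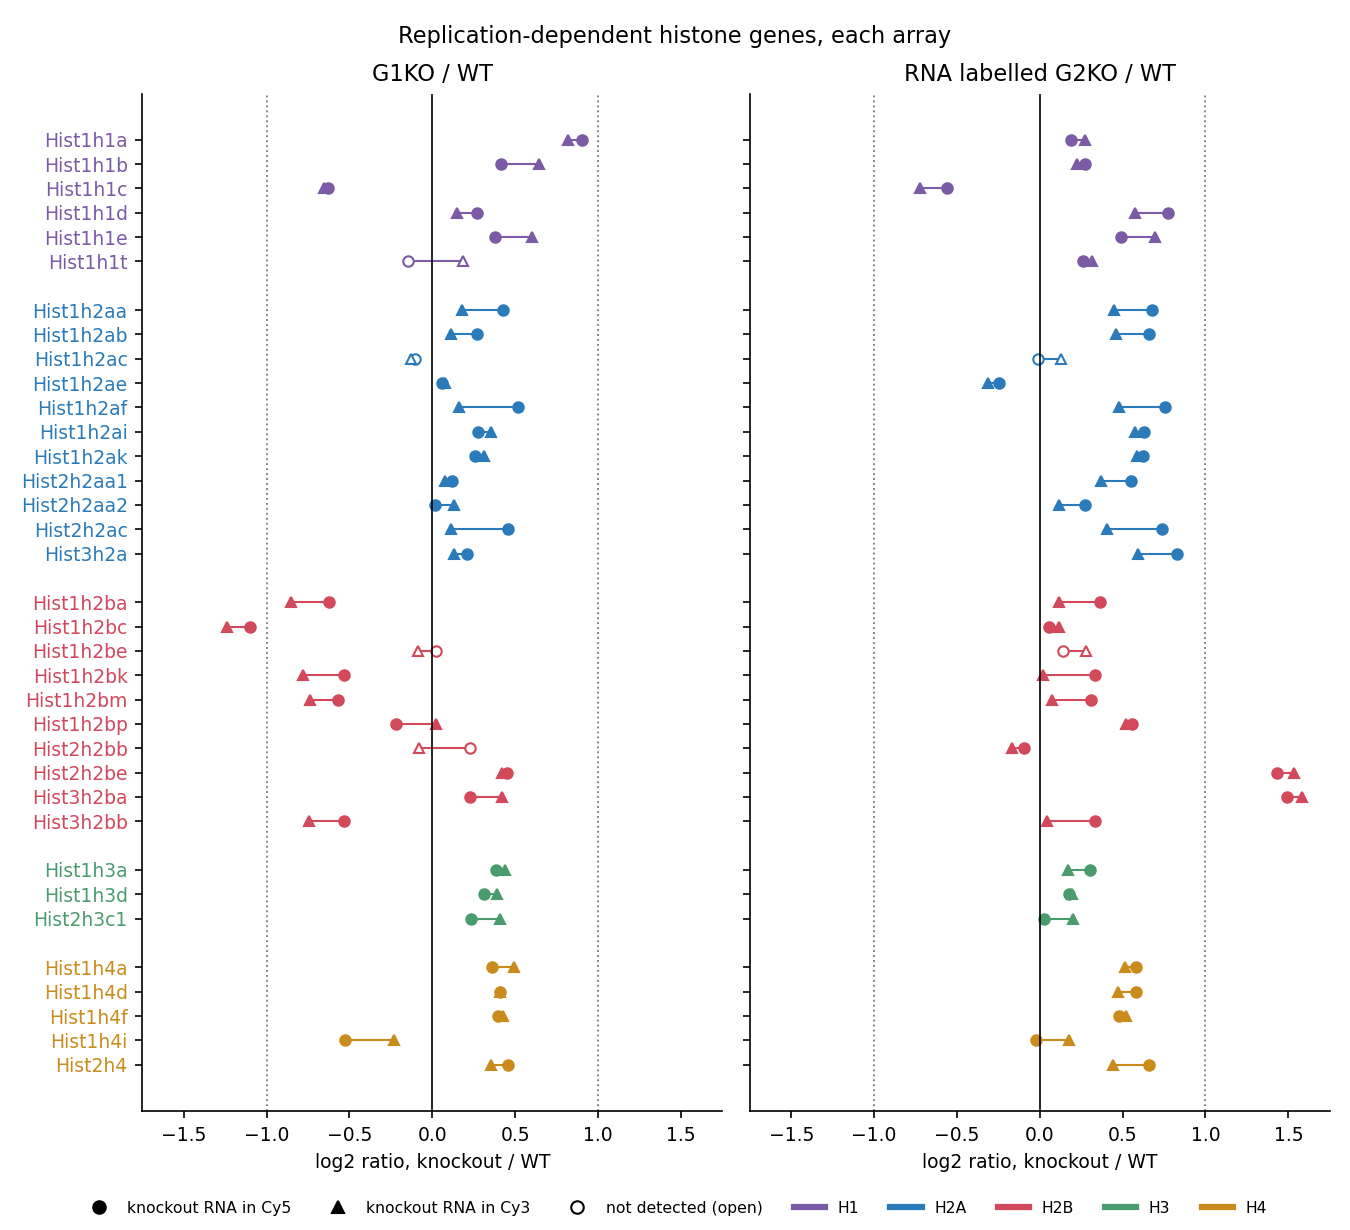
Log2 ratio of knockout to WT for the 35 histone genes, one row each and coloured by class, in the G1KO comparison (left) and in the RNA labelled G2KO (right); circles are the array with knockout RNA in Cy5, triangles the dye-swapped array, open symbols genes not detected, and dotted lines 2-fold. In G1KO MEFs 5 of the 8 detected H2B genes lie left of 0 on both arrays, 3 of them on probes that list several transcripts. The H2A genes lie right of 0 in 10 of 10 cases, also with 3 on such probes. In the RNA labelled G2KO Hist2h2be and Hist3h2ba lie past 2-fold. Hist2h2aa2, among the H2A genes, is read by a probe on the strand opposite to the gene.

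The promoter regions of genes from both sides of this split are shown, because histone promoters are known to carry elements typical of their class. Each runs from 250 bases before to 50 after the RefSeq start (GRCm38.p6), and capitals mark the searched letters on either strand: CCAAT, a common upstream element of histone promoters; TATAAA, letters found in TATA boxes; ATTTGCAT, the octamer known from H2B promoters; and AAACACA, the H1 box known from H1 promoters. Hist3h2ba was called higher in the RNA labelled G2KO, and Hist1h2bk and Hist1h2bm stood below WT in G1KO MEFs. Hist1h4a stood above WT in both comparisons, and Hist1h1c below WT in both. The probes of Hist1h2bk, Hist1h2bm and Hist1h4a list transcripts of several genes, so their ratios are not tied to the promoter shown.
Hist3h2ba, chr11:58948661-58948960, plus strand: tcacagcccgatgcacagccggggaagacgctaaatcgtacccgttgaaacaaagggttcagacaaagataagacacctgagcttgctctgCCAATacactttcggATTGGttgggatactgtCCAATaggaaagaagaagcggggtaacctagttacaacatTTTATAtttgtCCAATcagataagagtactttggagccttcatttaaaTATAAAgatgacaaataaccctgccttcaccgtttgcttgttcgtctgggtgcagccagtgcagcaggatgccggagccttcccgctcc
Hist1h2bk, chr13:22035571-22035870, plus strand: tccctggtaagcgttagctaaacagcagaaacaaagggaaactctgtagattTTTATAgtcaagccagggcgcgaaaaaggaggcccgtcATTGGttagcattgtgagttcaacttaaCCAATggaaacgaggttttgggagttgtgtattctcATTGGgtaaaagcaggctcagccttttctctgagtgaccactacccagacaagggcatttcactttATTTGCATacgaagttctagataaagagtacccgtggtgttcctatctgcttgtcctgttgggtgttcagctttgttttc
Hist1h2bm, chr13:21721794-21722093, plus strand: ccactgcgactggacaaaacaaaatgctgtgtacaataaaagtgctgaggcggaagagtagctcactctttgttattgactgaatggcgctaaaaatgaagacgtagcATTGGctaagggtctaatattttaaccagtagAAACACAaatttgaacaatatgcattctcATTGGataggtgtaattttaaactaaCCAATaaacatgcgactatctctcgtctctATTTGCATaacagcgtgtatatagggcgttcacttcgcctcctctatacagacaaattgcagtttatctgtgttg
Hist1h4a, chr13:23761200-23761499, minus strand: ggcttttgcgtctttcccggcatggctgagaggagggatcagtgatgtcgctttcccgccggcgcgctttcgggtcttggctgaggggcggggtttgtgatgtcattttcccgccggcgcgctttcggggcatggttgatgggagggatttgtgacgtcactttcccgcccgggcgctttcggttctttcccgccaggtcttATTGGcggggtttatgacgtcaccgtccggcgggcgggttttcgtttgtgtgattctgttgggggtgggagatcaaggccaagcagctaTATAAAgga
Hist1h1c, chr13:23738557-23738856, plus strand: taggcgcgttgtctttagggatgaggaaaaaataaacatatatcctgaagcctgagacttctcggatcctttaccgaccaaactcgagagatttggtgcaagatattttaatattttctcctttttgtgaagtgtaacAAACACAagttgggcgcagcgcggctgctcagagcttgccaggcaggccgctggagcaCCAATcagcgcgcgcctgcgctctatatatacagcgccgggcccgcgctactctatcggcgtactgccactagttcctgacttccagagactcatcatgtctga

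Of the 35 histone genes, 30 had a promoter region in the RefSeq table, in 31 regions, and Hist1h2bc, Hist1h3a, Hist2h2be, Hist2h4 and Hist3h2bb did not. CCAAT was present in 29 of the 31 regions, against 37.4% of all 32851 promoter regions of the same length, and TATAAA in 20 of 31, against 13.6%. The octamer was found in 5 of 8 H2B and 6 of 11 H2A regions and in 0 of the 12 H1, H3 and H4 regions, against 1.74% of all promoter regions. The H1 box was found in 5 of 6 H1 regions and in 4 of the 25 core histone regions, against 7.18% of all. No match of one motif overlapped a match of another in these regions. H2A and H2B genes often stand back to back and share a promoter: the regions of Hist1h2aa and Hist1h2ba overlapped, so both windows held the same elements. Hist1h2bk and Hist1h2bm, which were below WT in G1KO MEFs, carried the octamer, and so did the regions of Hist1h2ab and Hist2h2ac, which were above WT. The Hist1h2bk and Hist1h2bm probes list several genes and the Hist2h2ac probe no transcript, so motif and ratio may not belong to the same gene. Hist3h2ba had 4 CCAAT matches and no octamer in this window. The search took no account of position: the TATAAA of Hist1h4a lies after the start and that of Hist1h2bk far upstream of it, not where a TATA box stands.

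The H2B genes, whose product pairs with H2A in the nucleosome, had the widest range. In G1KO MEFs their median log2 ratio was -0.65 over 8 detected genes, of which 5 were below 0 on both arrays and 2 above. This median rests on probes that list several RefSeq transcripts: those 3 probes had a median of -0.65, and the 5 detected probes that list 1 or none had a median of -0.10, with 2 below 0 on both arrays and 2 above. Hist1h2bc, measured by a probe at chr13:23699815-23699874 (mm8), had normalised log2 levels of 11.49 and 11.45 in G1KO MEFs against 12.59 and 12.69 in WT MEFs. Both G1KO values were below both WT values, and the log2 ratios of the arrays were -1.10 and -1.24, a mean of -1.17 ± 0.10 or a 2.25-fold lower level. In the other comparison the same probe read 12.24 and 12.19 in the RNA labelled G2KO against 12.18 and 12.08 in WT MEFs, a log2 ratio of 0.09 ± 0.04. RefSeq gives Hist1h2bc a gene length of 8282 bases, against 500 for Hist1h2bk. Whether this probe read a long polyadenylated transcript or a stem-loop mRNA was not tested.

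Another 4 H2B probes formed a tight group in G1KO MEFs, below the call. Hist1h2ba, a testis H2B variant, gave log2 ratios of -0.63 and -0.85 on the 2 arrays, a mean of -0.74 ± 0.16. Hist1h2bk gave -0.66 ± 0.17, Hist1h2bm -0.65 ± 0.12 and Hist3h2bb -0.64 ± 0.15. All 4 stood slightly above WT in the second comparison, at 0.24 ± 0.18, 0.18 ± 0.22, 0.19 ± 0.17 and 0.19 ± 0.21. Of these probes, 3 were not specific to 1 gene: the Hist1h2bk probe lists transcripts of Hist1h2bj, Hist1h2bk, Hist1h2bl and Hist1h2bn, the Hist1h2bm probe those of Hist1h2bc, Hist1h2bg, Hist1h2bh and Hist1h2bm, and the Hist3h2bb probe one of Hist3h2ba. RefSeq calls Hist3h2bb a transcribed pseudogene. Their near-equal ratios therefore cannot be counted as separate genes, and the Hist1h2bm probe may carry some Hist1h2bc RNA.

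Hist2h2be and Hist3h2ba stood on the other side of 0 from most of their class in G1KO MEFs and were the pair called in the RNA labelled G2KO. Hist2h2be, a gene of the Hist2 cluster measured at chr3:96308863-96308922 (mm8), had log2 levels of 10.46 and 10.43 in the RNA labelled G2KO against 9.03 and 8.90 in its WT. Its log2 ratios were 1.43 and 1.54, a mean of 1.48 ± 0.08 or 2.80-fold. The 2 genotypes did not overlap, which the call on each array largely requires. In G1KO MEFs it read 8.49 and 8.47 against 8.04 and 8.06 in WT, a log2 ratio of 0.43 ± 0.02, which was not called. Its gene length in RefSeq is 2667 bases, against 462 for Hist3h2ba, and which transcript form its probe read was not tested.

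Hist3h2ba, which codes for H2B in the small Hist3 cluster (probe at chr11:58765641-58765700, mm8), had log2 levels of 9.72 and 9.80 in the RNA labelled G2KO against 8.23 and 8.22 in WT. This was a log2 ratio of 1.54 ± 0.06 or 2.90-fold, again with no overlap. In G1KO MEFs its levels were 8.0 and 8.17 against 7.78 and 7.74, a log2 ratio of 0.33 ± 0.14. The neighbouring Hist3h2bb probe, although it also lists a Hist3h2ba transcript, gave 0.19 ± 0.21 in the RNA labelled G2KO, so the probes tied to this gene disagreed.

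**Figure D2:**
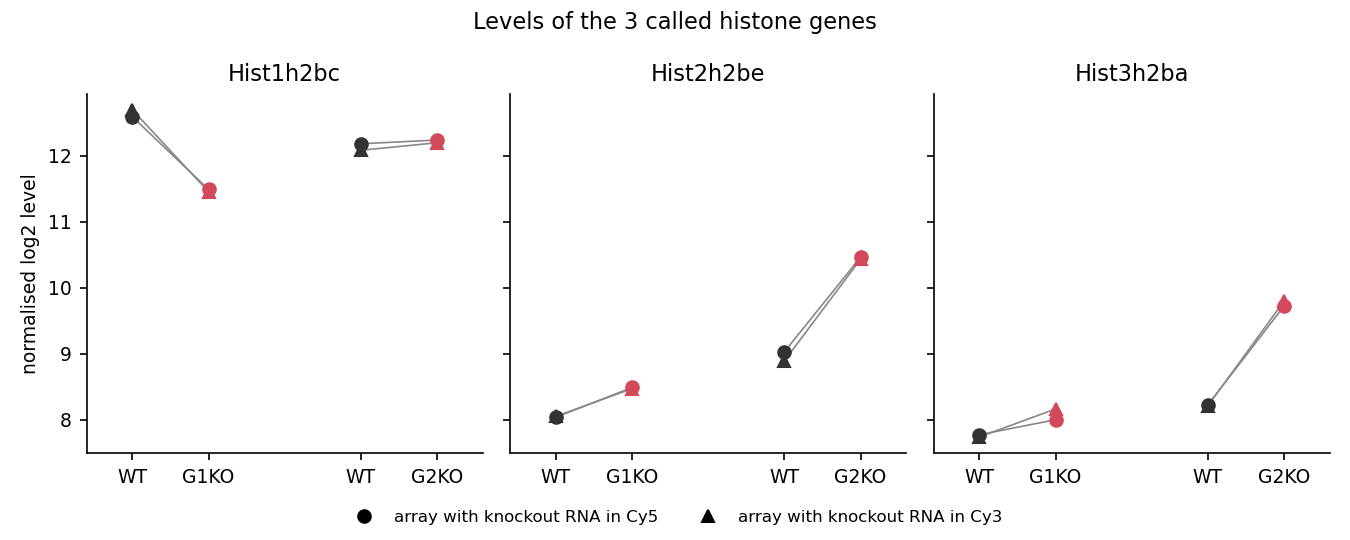
Normalised log2 level (vertical axis) of the 3 called histone genes in WT (black) and knockout (red) RNA of both comparisons, G2KO standing for the RNA labelled so; circles and triangles are the 2 dye-swapped arrays and lines join the RNAs of one array. Hist1h2bc is lower in G1KO MEFs and level in the other comparison, while Hist2h2be and Hist3h2ba are higher in the RNA labelled G2KO.

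The remaining H2B genes were near background. Hist1h2bp gave -0.10 ± 0.17 in G1KO MEFs and 0.54 ± 0.02 in the RNA labelled G2KO. Hist2h2bb, detected in the second comparison alone, gave -0.13 ± 0.05 there. It was the single H2B gene below 0 on both arrays in that comparison, where 8 of 9 detected were above and the class median was 0.19. Hist1h2be was detected in neither.

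The WT cultures gave a second view of the size of these differences. For the 31 genes detected in both comparisons, the log2 level in the WT of the G2KO comparison minus that in the WT of the G1KO comparison ran from -0.51 (Hist1h2bc) to 0.92 (Hist2h2be), with a median size of 0.20, against 0.30 for the 24150 probes detected in both. Those ends of the range were thus 2 of the called genes, and for the third, Hist3h2ba, the WT cultures differed by 0.46. The H2B probes of Hist1h2ba, Hist1h2bk, Hist1h2bm and Hist3h2bb were 0.31, 0.35, 0.35 and 0.39 lower in the WT of the G2KO comparison. For Hist1h2bc, Hist2h2be and Hist3h2ba the called ratio was larger in size than the difference between WT cultures. This follows from the call, which needs a log2 ratio of at least 1, while no WT difference of these 31 genes exceeded 0.92. Culture and genotype cannot be told apart with 1 culture each.

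The H2A genes had small ratios of mostly one sign. In G1KO MEFs 10 of 10 detected were above 0 on both arrays. Their log2 ratios ran from 0.07 (Hist1h2ae) to 0.34 (Hist1h2af), with a median of 0.24. The 7 detected probes that list 1 RefSeq transcript or none had a median of 0.19, and the 3 that list several had 0.32. The probes of Hist1h2af and Hist1h2ai both list Hist1h2ap, so the 10 are not all separate genes. Among the 10, Hist2h2aa2 (0.07 ± 0.08) was read near background by a plus-strand probe that lists no RefSeq transcript. RefSeq places that gene on the minus strand, so it is counted in both comparisons by its name alone. The second comparison had 9 of 10 above 0 on both arrays, with a median of 0.57, and the highest was Hist3h2a at 0.71 ± 0.17. Hist3h2a read 14.61 and 14.71 on the log2 scale in the RNA labelled G2KO against 13.78 and 14.12 in WT. These levels did not overlap on the arrays of this RNA pair, and the share of all probes without overlap was not counted. The exception was Hist1h2ae, whose levels of 7.57 and 7.44 lay below the WT values of 7.81 and 7.76, or -0.28 ± 0.05 as a log2 ratio. Its ratio in G1KO MEFs was 0.07 ± 0.02.

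An H2A and an H2B gene of the list are direct neighbours in RefSeq in 4 cases, and their ratios were set side by side. Hist1h2aa and Hist1h2ba, the testis variants with overlapping promoter regions, gave 0.30 ± 0.17 and -0.74 ± 0.16 in G1KO MEFs, an H2B-minus-H2A difference of -1.04. The second comparison gave 0.56 ± 0.16 and 0.24 ± 0.18. In G1KO MEFs the Hist1h2aa probe read 16.43 and 16.51, near the Hist1h2af probe at 16.62 and 16.72, whereas Hist1h2ba read 10.38 and 10.35. Whether the Hist1h2aa probe also bound RNA of other H2A genes was not tested. Hist2h2ac gave 0.28 ± 0.24 and its neighbour Hist2h2be 0.43 ± 0.02 in G1KO MEFs, and 0.57 ± 0.23 and 1.48 ± 0.08 in the RNA labelled G2KO. In the Hist3 cluster, Hist3h2a gave 0.17 ± 0.06 and the pseudogene Hist3h2bb -0.64 ± 0.15 in G1KO MEFs, and 0.71 ± 0.17 and 0.19 ± 0.21 in the RNA labelled G2KO. Hist1h2ac, the neighbour of Hist1h2bc, was not detected. In G1KO MEFs the neighbours thus lay on opposite sides of 0 in the first and the third case and on the same side in the second. The third case depends on the probe, because another probe that lists Hist3h2a gave -0.08 ± 0.10 in G1KO MEFs. The Hist3h2bb probe of that case lists Hist3h2ba, so its values are not tied to the pseudogene alone.

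Among the linker histones, Hist1h1c stood apart from the rest of its class. It is one of the H1 genes known to give polyadenylated mRNA, and read 11.73 and 11.73 in G1KO MEFs against 12.36 and 12.38 in WT, a log2 ratio of -0.64 ± 0.02. Its levels were 11.91 and 11.86 against 12.47 and 12.58 in the second comparison, again -0.64, ± 0.11. Both knockouts were below their WT on every array, by a 1.56-fold lower level in each comparison, and neither was called. Hist1h1a had the largest ratio above 0 of all histone genes in G1KO MEFs, with levels of 8.53 and 8.48 against 7.63 and 7.66 and a log2 ratio of 0.86 ± 0.06, but 0.23 ± 0.06 in the RNA labelled G2KO. Hist1h1b gave 0.53 ± 0.17 and 0.25 ± 0.04, Hist1h1e 0.49 ± 0.16 and 0.59 ± 0.15, and Hist1h1d 0.21 ± 0.08 and 0.67 ± 0.14. The testis H1 gene Hist1h1t was near background and gave 0.29 ± 0.04 in the RNA labelled G2KO. The class medians were 0.49 and 0.27. They moved to 0.21 in G1KO MEFs with the mean of all probes of a gene and to 0.54 in the RNA labelled G2KO with the scanner's own ratio.

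With the main processing the 3 H3 genes lay close together, and so did the H4 genes other than Hist1h4i. The 3 H3 genes gave 0.41 ± 0.04 (Hist1h3a), 0.35 ± 0.05 (Hist1h3d) and 0.32 ± 0.12 (Hist2h3c1) in G1KO MEFs, and 0.24 ± 0.10, 0.19 ± 0.02 and 0.11 ± 0.12 in the RNA labelled G2KO. The Hist1h3d probe lists 4 genes and the Hist2h3c1 probe 3. Hist1h3a read only 6.81 to 7.25 on the log2 scale in the G1KO comparison. With the scanner's own ratio it moved to 0.82 there, and Hist2h3c1 gave 0.32. Hist1h4a, Hist1h4d, Hist1h4f and Hist2h4 lay between 0.40 and 0.42 in G1KO MEFs and between 0.50 and 0.55 in the RNA labelled G2KO. Their levels did not overlap on these arrays, which hold the same RNA pair and give no spread between cultures. Of all probes, 39.8% and 40.7% were above 0 on both arrays in the first and second comparison. The share of all probes without overlap was not counted, so the lack of overlap is not read as particular to H4 genes. Hist1h4a, for example, read 12.55 and 12.72 in G1KO MEFs against 12.19 and 12.23 in WT. The probes of Hist1h4a, Hist1h4d and Hist1h4f share listed transcripts, so these values are not separate genes. Hist1h4i differed, with log2 levels of 11.53 and 11.71 in G1KO MEFs against 12.06 and 11.94 in WT, a ratio of -0.38 ± 0.21, and 0.08 ± 0.14 in the RNA labelled G2KO with opposite signs on the 2 arrays. The Hist1h4i probe lists no RefSeq transcript and its mapped position spans only chr13:22048045-22048051 (mm8), so it may not measure the mRNA of this gene. The promoter region of Hist1h4i was 1 of the 2 without CCAAT, Hist1h4f being the other.

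Among these genes, 8 are known to give polyadenylated mRNA as well: Hist1h1c, Hist1h2ac, Hist1h2bc, Hist1h2be, Hist2h2aa1, Hist2h2be, Hist3h2a and Hist3h2ba. All 3 called genes were among the 6 of these that were detected, and 0 of the 25 and 27 detected genes outside this list were called in the first and second comparison. The list was drawn up with results of these data known, and its members did not share a direction: in G1KO MEFs the 6 ran from -1.17 to 0.43 with a median of 0.13, and in the RNA labelled G2KO from -0.64 to 1.54 with a median of 0.59. Outside the list the ratios ran from -0.74 to 0.86 and from -0.28 to 0.67. Whether more polyadenylation or more mRNA gave a higher signal was not tested.

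More than 1 probe was present for 8 genes, and the probes far downstream differed most. Histone H1 mRNAs with a stem-loop end are shorter than the distances given here. The second Hist1h1e probe lies 2320 bases (mm8) towards the 3′ side of the brightest and gave -0.07 ± 0.03 in G1KO MEFs against 0.49 ± 0.16 for the brightest, and 0.03 ± 0.05 against 0.59 ± 0.15 in the RNA labelled G2KO. The second Hist1h1d probe lies 1751 bases to the 3′ side and gave -0.52 ± 0.38 against 0.21 ± 0.08 in G1KO MEFs, and 0.52 ± 0.26 against 0.67 ± 0.14 in the RNA labelled G2KO. For Hist1h2af, Hist1h2bk, Hist1h4d and Hist2h2ac the probes had one sign in each comparison, although the second Hist2h2ac probe lies 25283 bases away and also lists transcripts of Hist2h2aa1 and Hist2h2aa2. Hist1h2bk, for example, gave -0.66 ± 0.17 and -0.51 ± 0.24 in G1KO MEFs. The second Hist2h2aa2 probe gave 0.23 ± 0.16 in the RNA labelled G2KO and was not detected in the G1KO comparison. Both probes of this gene map to the plus strand, opposite to the gene in RefSeq. Of the 4 Hist3h2a probes, 3 were detected, at 0.17, -0.08 and 0.36 in G1KO MEFs and at 0.71, 0.63 and 0.61 in the RNA labelled G2KO. The last of these lists no RefSeq transcript and lies on the minus strand, opposite to Hist3h2a, so its values are not taken as those of the mRNA of this gene.

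**Figure D3:**
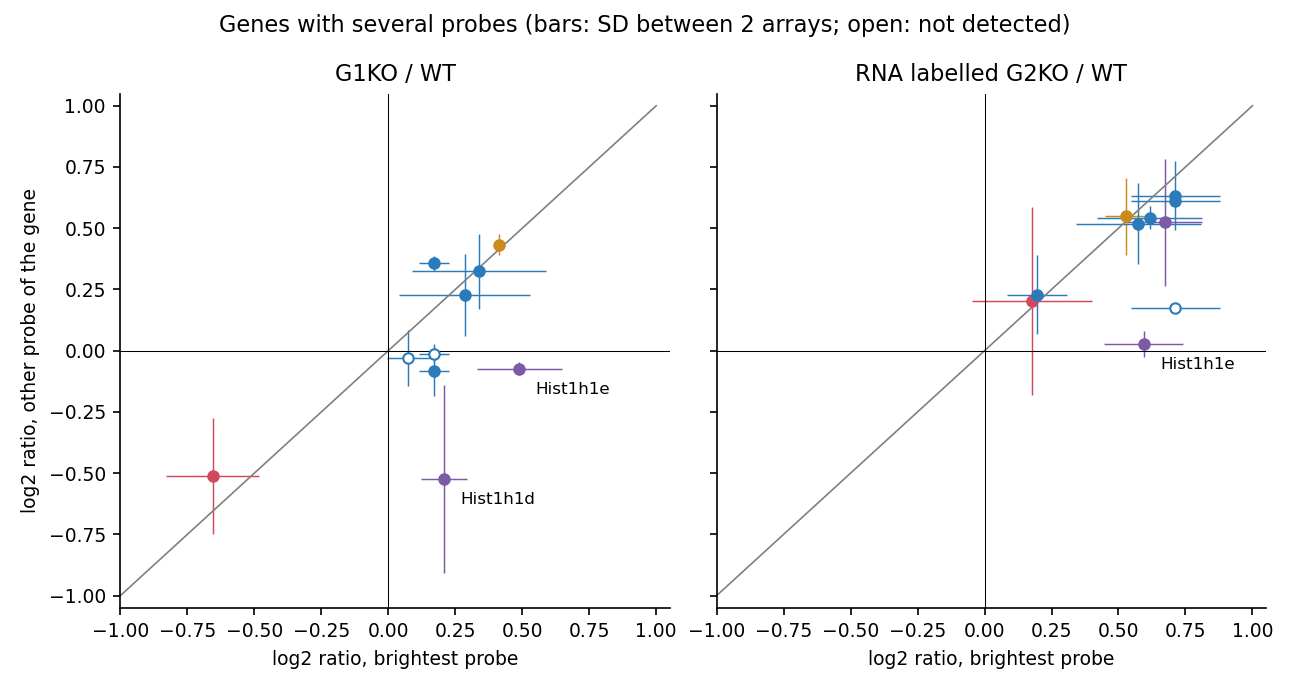
Log2 ratio of the other probe (vertical axis) against the brightest probe (horizontal axis) of each gene with several probes, coloured by class as in the plot of all histone genes, with bars for the SD between the 2 arrays, open symbols where a probe was not detected and a grey line of equality. The downstream probes of Hist1h1d and Hist1h1e, named where they differ by over 0.4, lie below the line at -0.52 and -0.07 in G1KO MEFs; the point at 0.36 there is the Hist3h2a probe on the opposite strand.

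Genes that act with histones were read in the same arrays. Replication-independent histone genes, which are transcribed outside S phase as well and carry poly(A) tails, had 0 called genes, a median of 0.23 over 12 detected in G1KO MEFs (10 above 0 on both arrays, 0 below) and of 0.08 over 14 in the RNA labelled G2KO (6 above, 5 below). H2afz and H2afv, variants of H2A, gave 0.78 ± 0.23 and 0.61 ± 0.09 in G1KO MEFs. Hist4h4, an H4 gene outside the main clusters, gave 0.64 ± 0.30 and H2afj, an H2A gene with a poly(A) tail, 0.58 ± 0.28 in the RNA labelled G2KO. Whether Hist4h4 is transcribed outside S phase or carries a poly(A) tail was not checked, so it may not belong in this list.

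Genes for transcription and 3′ end processing of histone mRNA also had 0 calls in either comparison. Their median was 0.15 over 13 detected in G1KO MEFs and 0.05 in the RNA labelled G2KO. Slbp, the stem-loop binding protein, gave 0.47 ± 0.01 and 0.10 ± 0.02, and Casp8ap2 0.39 ± 0.07 in G1KO MEFs. Sympk, a scaffold of the cleavage complex, gave -0.9995 ± 0.17 in the RNA labelled G2KO and missed the call on 1 array, and Lsm11, a subunit of the U7 particle, gave 0.29 ± 0.02. Histone chaperones had medians of 0.18 and 0.12 over 20 detected genes and 0 calls. Nasp, a chaperone of H1 and H3, gave 0.64 ± 0.12 and Chaf1a, a subunit of chromatin assembly factor 1, 0.62 ± 0.07 in G1KO MEFs, while Nap1l1, a chaperone of H2A and H2B, gave 0.78 ± 0.05 and Hat1, an acetyltransferase of new H4, 0.60 ± 0.02 in the RNA labelled G2KO.

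DNA replication genes had a median of 0.28 over 35 detected in G1KO MEFs (25 above 0 on both arrays, 4 below, 0 called). Over 36 detected in the RNA labelled G2KO the median was 0.37 (28 above, 1 below), and Mcm2, a subunit of the replicative helicase, was called there at 1.07 ± 0.01. Uhrf1, which keeps DNA methylation through replication, gave 0.95 ± 0.24 and 1.02 ± 0.19, and Pola1, of DNA polymerase alpha, 0.92 ± 0.01 in G1KO MEFs. G2/M genes had a median of 0.08 in G1KO MEFs (15 of 26 above 0, 8 below, 0 called). It was 0.56 in the RNA labelled G2KO (23 above, 1 below), where Aurkb, a mitotic kinase, was called at 1.31 ± 0.01 and Bub1, a spindle checkpoint kinase, gave 0.89 ± 0.06. The largest values of this list in G1KO MEFs were 0.59 ± 0.01 for Cenpe, a mitotic motor, and 0.46 ± 0.04 for Ccna2. In G1KO MEFs the medians of H1, H2A, H3 and H4 genes were between 0.24 and 0.49. The H2B median was -0.65, or -0.10 over the 5 detected probes that list at most 1 transcript.

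**Figure D4:**
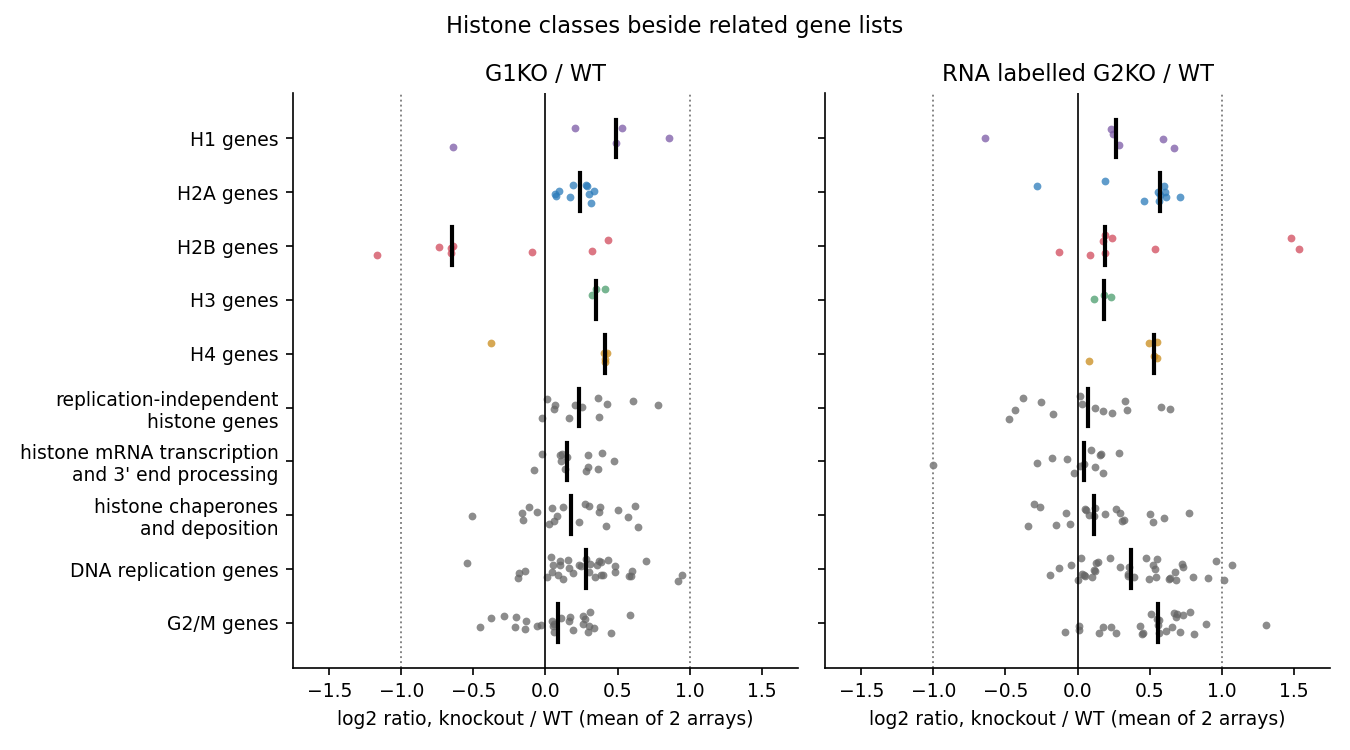
Log2 ratio of knockout to WT (horizontal axis, mean of 2 arrays) of each detected gene in the 5 histone classes and 5 related lists, in G1KO MEFs (left) and the RNA labelled G2KO (right); black bars are medians, dotted lines 2-fold, and vertical scatter within a row has no meaning. The H2B median lies at -0.65 in G1KO MEFs (-0.10 without the 3 probes that list several transcripts), and the other 9 medians of that panel lie above 0.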

How the data were processed

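RNA of 4 cultures was hybridised to 4 two-colour Agilent arrays; 2 dye-swapped arrays per comparison held the same extracts and counted as 1 replicate. Per the file headers, the deposited intensities came from Feature Extraction 10.5.1.1 (9.1 in the submitters' processing notes), with mm8 annotation; the authors also deposited a table of log10 and log2 ratios, used as alternatives. Mean intensities were background-corrected (normexp, offset 50) and normalised by loess within arrays in limma 3.58.1 (R 4.3.3), leaving out 114 to 203 flagged gene spots per array; no gene spot was saturated. Levels were scaled between arrays by Aquantile. Each channel had 23986 to 26283 probes well above background; the number of arrays limits precision. Ratios were averaged with knockout over WT.

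The members and lists were chosen with earlier results of these data known. Given in full were called members and, in each class and comparison, those with the highest and lowest ratios; related lists are given by counts, medians, called genes and the 2 largest. Ncbp1, Mblac1, Hjurp, Tonsl and Gins2 were not matched by name. H2afj, H3f3b and Mcm4 had a flagged spot in the G1KO comparison and no value there. Alternatives changed the background correction, normalisation, filter, threshold, probe rule and array.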

Additional observations from a re-analysis of the deposited data

Results flagged for a closer look

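Among the 31 histone genes detected in both comparisons, the ratios of 6 probes differed in sign between the comparisons on every array. This was what drew attention to them, and the difference between comparisons was not tested. Of all probes tested, 39.8% were above and 40.8% below 0 on both arrays in the first comparison, and 40.7% and 42.7% in the second. The share of all probes with opposite signs was not counted, so the 6 are not read as many or few. Of these probes, 5 carry the names of H2B genes, and they were below WT in G1KO MEFs and above WT in the RNA labelled G2KO. Those of Hist1h2bk and Hist1h2bm list transcripts of several genes, and that of Hist3h2bb, a transcribed pseudogene, lists Hist3h2ba. The 5 are therefore not separate genes. Hist1h2bc had log2 ratios of -1.17 and 0.0853, and Hist1h2ba of -0.74 and 0.24. Hist1h2bk gave -0.66 and 0.18, Hist1h2bm -0.65 and 0.19, and Hist3h2bb -0.64 and 0.19. The sixth, the H2A gene Hist1h2ae, ran the other way, with 0.0685 in G1KO MEFs and -0.28 in the RNA labelled G2KO.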

How the results depend on the processing

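Hist1h2bc was no longer called in G1KO MEFs with median centring in place of loess (0 called lower; its mean ratio there was -1.13); the cause was not tested. With the scanner's own log ratio or the series table's, 1 gene was called higher in G1KO MEFs (Hist1h1a) and 4 in the RNA labelled G2KO (Hist1h1t and Hist1h2bp added). A 1.5-fold threshold gave 1 called higher (Hist1h1a) and 3 lower (Hist1h1c and Hist1h2ba added) in G1KO MEFs and 4 higher (Hist1h2ak and Hist3h2a added) in the RNA labelled G2KO; a 4-fold threshold left 0 in either. The median of the histone genes moved in G1KO MEFs to 0.21 with no filter on dim probes and 0.16 on the array with knockout RNA in Cy3 alone. In the RNA labelled G2KO it moved to 0.55 with the scanner's ratio (0.5545) and the series table (0.5531), 0.29 with no filter, 0.37 on the Cy3 array alone and 0.31 with the mean of all probes of a gene. No alternative turned the direction of a called gene. Hist1h1d turned to -0.16 in G1KO MEFs with the mean of its probes. The H2B median in G1KO MEFs ran from -0.74 to -0.37, the latter with no filter on dim probes. Class medians moved by over 1.5 times also for H1 in G1KO MEFs (0.21 with the mean of all probes), for H2A there (0.13 on the Cy3 array alone), and in the RNA labelled G2KO for H1 (0.54 with the scanner's ratio or the series table, 0.41 with a normexp offset of 16) and H2B (0.30 with median centring, 0.34 and 0.11 on the Cy5 and Cy3 array alone). The median of the genes known to give polyadenylated mRNA moved to 0.03 in G1KO MEFs and 0.33 in the RNA labelled G2KO with no filter on dim probes. No paired analysis was possible because the labels carry no replicate numbers and each genotype had 1 culture. Genes near background, such as Hist1h2bp and Hist1h1t, are the least certain.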
